A study of Mus musculus with 12 samples.

Results

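The m6A readers are proteins that bind N6-methyladenosine (m6A), the commonest internal modification of mRNA, or that bind RNA whose fold the mark has loosened. The 10 genes examined were the YTH family (Ythdf1, Ythdf2, Ythdf3, Ythdc1 and Ythdc2), the IGF2BP family (Igf2bp1, Igf2bp2 and Igf2bp3) and the hnRNP readers Hnrnpa2b1 and Hnrnpc. They were taken by gene symbol from a table of 55487 genes, in which each symbol occurred once, and all 10 passed the filter on low values.

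The study asked how rhein, an inhibitor of the m6A demethylase FTO, and loss of Fto itself affect fat cell formation. RNA was sequenced from 3T3-L1, mouse fibroblasts that become adipocytes when given MDI (IBMX, dexamethasone and insulin). Cells carried a lentiviral scrambled hairpin (shScram) or a lentiviral hairpin against Fto (shFto), and the cells of each label are called a line here. Both were selected with puromycin, so that the shScram cells had also passed through infection and selection. Each line was taken as preadipocytes before MDI (Pre), at mitotic clonal expansion after MDI (MCE) and at the differentiation stage (Diff), with 2 libraries in each of the 6 groups and 12 in all. The methods list more than one Fto hairpin and do not say which was sequenced. Whether the libraries of a group came from 1 hairpin or 1 infected population is not given. An effect of Fto loss and other differences between the lines cannot be told apart. Nothing in the sources says that replicates were separate cultures, so p-values measure only the spread between these libraries, which may be technical. Values are TPM (transcript abundance scaled to the same total in every library), which correct for transcript length and can be compared between genes, and which keep no sequencing depth.

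m6A is written onto RNA by the METTL3 and METTL14 complex, is removed by FTO and ALKBH5, and takes effect through readers. YTHDF proteins bind marked mRNA in the cytoplasm through the YTH domain and are known for promoting its decay and, for YTHDF1, its translation. YTHDC1 acts in the nucleus in splicing and export, YTHDC2 is a helicase known from meiosis, and IGF2BP proteins stabilise bound mRNAs and are known as oncofetal proteins that are high in embryos and tumours. HNRNPA2B1 and HNRNPC are abundant nuclear proteins that package pre-mRNA, and both have been described as readers of RNA whose structure m6A has opened.

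The targeted gene separated the lines. Fto, at 52.7 to 73.5 TPM in the 6 shScram libraries, was at 5.51 to 7.47 TPM in the 6 shFto libraries. The title of replicate 1 of shScram Diff gives the control hairpin, but its treatment field gives the knockdown; the library was grouped by its title, and its Fto was 73.5 TPM. Replicate 1 of shScram Pre stood apart from its replicate, with Pearson r = 0.939 between them over the genes tested against 0.990 to 0.993 for the other 5 pairs. The difference between these replicates followed the GC content of transcripts across genes, with Spearman rho = -0.711, and replicate 1 had the highest level of 7 of the 10 readers among the 12 libraries. Reader counts and the knockdown differences of the readers at Pre are therefore given with and without this library. Differences of other named genes are given only with it. The sum of 10 adipocyte markers was 171 to 211 TPM in shScram Pre, 444 to 453 in shScram MCE and 1687 to 1710 in shScram Diff, against 286 to 318, 302 to 312 and 481 to 518 TPM in shFto. Much of the shFto sums was Lpl, a lipase that was already at 247 to 281 TPM in shFto Pre. Without Lpl the other 9 markers summed to 36.6 to 59.1, 361 to 366 and 1354 to 1407 TPM in shScram, against 36.6 to 38.9, 106 to 113 and 212 to 236 TPM in shFto. The sum of 7 cycling genes was 786 to 847 TPM in shScram MCE and 674 to 712 in shFto MCE. At Pre it was 291 to 330 TPM in shScram and 240 to 256 in shFto. At Diff it was 159 to 168 and 278 to 307 TPM. At MCE Top2a, Ccnb1, Ccna2 and Cdk1 were lower in shFto, Aurkb and Bub1 were higher, and Mki67 overlapped. Summed TPM of 8 preadipocyte and fibroblast markers in shScram was 5197 to 9283 (Pre), 4440 to 4851 (MCE) and 6780 to 7172 (Diff). In shFto it was 7989 to 8028, 6051 to 6548 and 9863 to 10313. Sums of 4 macrophage and 3 endothelial markers were at most 4.01 and 0.651 TPM. In bulk RNA, fewer cells of a type and less RNA per cell cannot be told apart, and the part of adipocyte and cycling cell content in the differences below was not tested.

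Promoter sequences came from RefSeq (GRCm38.p6), in which 7 of the 10 genes matched by symbol; those of Ythdf3, Ythdc2 and Igf2bp1 were not used here. Those of Ythdf1, Ythdf2 and Hnrnpa2b1 are shown because these 3 genes have an entry and a called mean difference between the lines (below). Ythdf2 had no single direction over the stages, and its mean was called in 14 of 25 alternatives. Each runs from 250 bases before to 50 bases after the RefSeq start, and capitals mark the GC box GGGCGG (or CCGCCC on the other strand), the CCAAT box CCAAT (or ATTGG) and the E-box CACGTG.
Ythdf1, chr2:180920887-180921186, minus strand: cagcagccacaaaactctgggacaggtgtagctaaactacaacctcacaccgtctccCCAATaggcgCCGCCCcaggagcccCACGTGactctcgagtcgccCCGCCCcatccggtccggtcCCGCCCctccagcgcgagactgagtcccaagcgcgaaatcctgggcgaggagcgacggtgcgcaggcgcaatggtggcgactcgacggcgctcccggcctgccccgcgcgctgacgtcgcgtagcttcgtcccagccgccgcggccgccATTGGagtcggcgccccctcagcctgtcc
Ythdf2, chr4:132212207-132212506, minus strand: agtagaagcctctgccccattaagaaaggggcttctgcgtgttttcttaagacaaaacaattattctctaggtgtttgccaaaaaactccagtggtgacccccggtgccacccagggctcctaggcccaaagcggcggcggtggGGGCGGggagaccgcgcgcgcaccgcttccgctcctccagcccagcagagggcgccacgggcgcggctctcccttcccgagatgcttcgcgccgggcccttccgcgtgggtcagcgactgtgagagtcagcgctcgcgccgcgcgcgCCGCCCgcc
Hnrnpa2b1, chr6:51469845-51470144, minus strand: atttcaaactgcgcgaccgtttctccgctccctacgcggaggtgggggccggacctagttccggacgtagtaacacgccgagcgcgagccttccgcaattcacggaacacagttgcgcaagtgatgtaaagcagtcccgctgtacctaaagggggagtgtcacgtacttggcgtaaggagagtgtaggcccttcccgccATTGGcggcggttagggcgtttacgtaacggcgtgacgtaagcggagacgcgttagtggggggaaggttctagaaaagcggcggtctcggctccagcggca
All of them are rich in GC and CpG, at 70.0% GC and 37 CpG for Ythdf1, 66.3% and 32 for Ythdf2, and 60.0% and 34 for Hnrnpa2b1, against medians of 52.7% and 7 over 32851 promoters. The Ythdf1 window holds 3 GC boxes, 2 CCAAT boxes and 1 E-box, that of Ythdf2 holds 2 GC boxes, and that of Hnrnpa2b1 holds 1 CCAAT box, with no overlap between motifs. The GC box was present in 35.66% of all promoters, the CCAAT box in 37.41% and the E-box in 7.15%. These are matches of letters, not sites of binding.

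The readers spanned a wide range of levels. Hnrnpa2b1 was the most abundant in 12 of 12 libraries, with a mean of 1047 TPM, above 99.0% of the genes tested. Next in 12 of 12 libraries came Hnrnpc (mean 257 TPM) and then Igf2bp2 (111 TPM), and Ythdc2 was lowest in 12 of 12, at 5.83 TPM. Between them lay Igf2bp3 (55.0 TPM), Ythdf1 (53.9), Ythdf3 (46.6), Ythdc1 (42.8), Ythdf2 (21.6) and Igf2bp1 (17.8). Neighbours in this middle order changed places with the line. Igf2bp3 was above Ythdf1 in 6 of 6 shScram libraries and 0 of 6 shFto libraries, and Ythdf3 was above Ythdf1 in 6 of 6 shScram libraries and 0 of 6 shFto libraries. Ythdf3 was above Ythdc1 in 6 of 6 shScram and 3 of 6 shFto libraries, and Ythdf2 was above Igf2bp1 in 6 of 6 and 2 of 6.

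**Figure D1:**
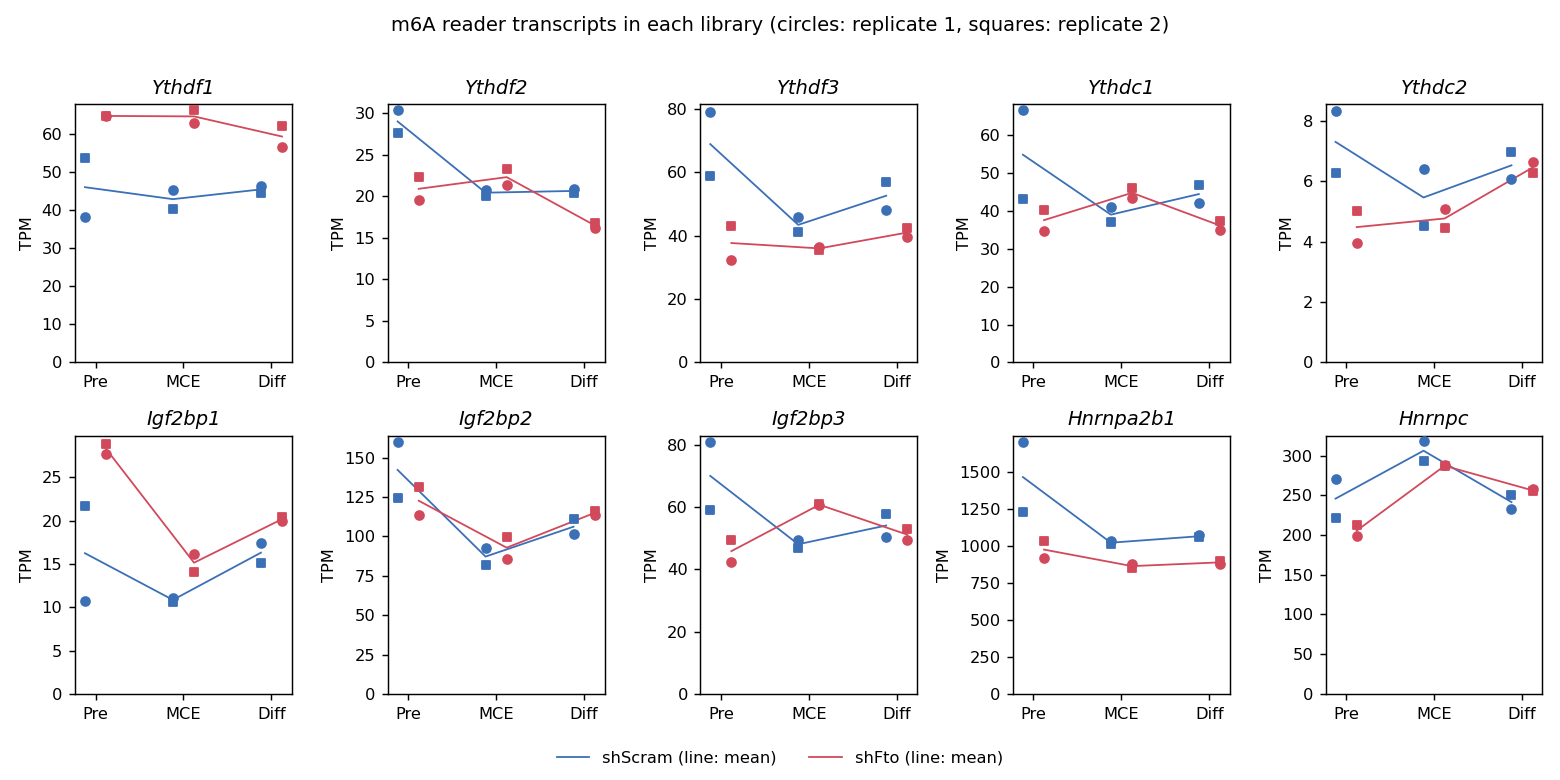
TPM of the 10 readers in each of 12 libraries, by stage (horizontal axis) and line (shScram blue, shFto red); circles are replicate 1, squares replicate 2 and lines join the means of 2 libraries. Ythdf1 and Igf2bp1 lie above the shScram libraries at every stage in shFto, Ythdf3 and Hnrnpa2b1 lie below them at every stage, and replicate 1 of shScram Pre is high for Ythdf3, Ythdc1 and Hnrnpa2b1.

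Over the 3 stages together, 5 of the 10 readers differed between the lines. Ythdf1 and Igf2bp1 were higher in shFto, and Ythdf2, Ythdf3 and Hnrnpa2b1 were lower. This count came from limma on log2(TPM + 1), averaging the differences of the stages, with an adjusted p under 0.05 over 15968 genes. The same contrast called 42.8% of all genes, 24.5% higher and 18.3% lower, so that 5 of 10 is near the background and is not a result about readers as a group. The median difference of the readers was -0.16 against 0.06 for all genes on the log2 scale. With replicate 1 of shScram Pre left out, the count was again 5, with 2 higher and 3 lower, against 56.6% of all genes, and it was also 5 with that library and replicate 1 of shScram Diff both left out, against 55.1%. It was 9 without replicate 2 of shScram Pre, where 67.4% of all genes were called. Over 25 alternative settings, Ythdf1, Ythdf3 and Hnrnpa2b1 were called in 25, Igf2bp1 in 19 and Ythdf2 in 14.

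**Figure D2:**
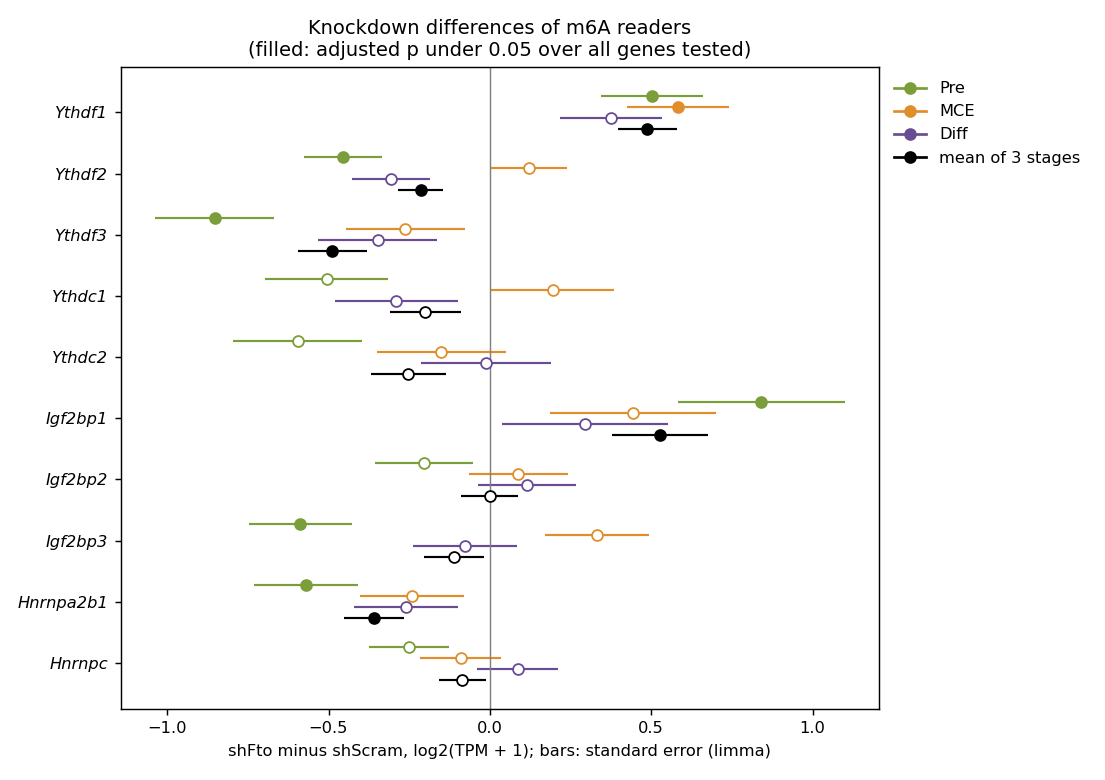
Difference shFto minus shScram in log2(TPM + 1) for each reader at Pre, MCE and Diff and as the mean of the 3 stages, with bars of 1 standard error from limma; filled points have an adjusted p under 0.05 over all genes tested. The Ythdf1 points lie between 0.38 and 0.58, and Ythdf2, Ythdc1 and Igf2bp3 lie below 0 at Pre and above 0 at MCE.

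Ythdf1 (ENSMUSG00000038848, chr2:180904377-180920949, minus strand, GENCODE annotation of GRCm38), the cytoplasmic reader tied to translation, was higher in shFto. In shScram it measured 38.3 and 53.9 TPM at Pre, 45.4 and 40.5 at MCE, and 46.3 and 44.7 at Diff. In the knockdown line these were 64.9 and 64.8 TPM at Pre, 63.0 and 66.5 at MCE, and 56.8 and 62.1 at Diff. All 6 shFto libraries were above all 6 shScram libraries, and the share of all genes for which this holds was not counted. Within a stage, both shFto libraries were above both shScram libraries for 33.6% (Pre), 41.1% (MCE) and 39.0% (Diff) of all genes. On the log2 scale the difference was 0.50 ± 0.16 (SE) at Pre, 0.58 ± 0.16 at MCE and 0.38 ± 0.16 at Diff, with adjusted p = 0.0437, 0.0341 and 0.130 (limma, Benjamini-Hochberg). The mean over stages was 0.49 ± 0.09, with adjusted p = 0.00295. An exact permutation of the line labels within stages, two-sided, gave p = 0.00926, the smallest that its arrangements allow. Within the lines the steps of Ythdf1 between successive stages were 0.12 or less in size on the log2 scale, and none passed the test. Without replicate 1 of shScram Pre, however, the step from Pre to MCE in shScram was -0.32 with adjusted p = 0.0201 in limma. The call at Pre was lost without replicate 1 of shScram Pre, where the difference was 0.26 with adjusted p = 0.0673, and the mean over stages was then 0.41.

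Ythdf3 (ENSMUSG00000047213, chr3:16183212-16217037, plus strand), which is known to work with the other YTHDF proteins in the cytoplasm, went the other way. In shScram it measured 79.1 and 58.7 TPM at Pre, 45.8 and 41.1 at MCE, and 48.2 and 57.1 at Diff. Levels in shFto were 32.2 and 43.1 TPM at Pre, 36.4 and 35.5 at MCE, and 39.7 and 42.3 at Diff. The shFto libraries were below the shScram libraries at each stage. The difference was -0.85 ± 0.18 on the log2 scale at Pre (adjusted p = 0.0126, limma), -0.26 ± 0.18 at MCE (0.399) and -0.35 ± 0.18 at Diff (0.224). The mean over stages fell by 0.49 ± 0.11, with adjusted p = 0.00632 in limma and p = 0.00926 in the exact permutation test. Transcripts of Ythdf3 hold 40.2% GC, below all but 5.78% of the genes tested, and the knockdown differences followed GC content across genes, with Spearman rho = 0.605 at Pre, 0.124 at MCE, 0.203 at Diff and 0.403 for the mean. After a GC correction the mean difference was -0.26, with adjusted p = 0.00289 in limma. Without replicate 1 of shScram Pre the difference of Ythdf3 was -0.64 at Pre and -0.42 for the mean.

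Ythdf2 (ENSMUSG00000040025, chr4:132184912-132212303, minus strand), which recruits the CCR4-NOT deadenylase to marked mRNA, had no single direction. In shScram it measured 30.4 and 27.7 TPM at Pre, 20.8 and 20.1 at MCE, and 20.9 and 20.4 at Diff. The shFto line had 19.5 and 22.3 TPM at Pre, 21.4 and 23.2 at MCE, and 16.2 and 16.8 at Diff. The shFto libraries were below the shScram libraries at Pre and Diff and above them at MCE. The difference was -0.46 ± 0.12 on the log2 scale at Pre (adjusted p = 0.0255, limma), 0.12 ± 0.12 at MCE (0.573) and -0.31 ± 0.12 at Diff (0.109). The mean over stages was -0.21 ± 0.07, with adjusted p = 0.035 in limma over a range of 0.0044 to 0.118 in the alternatives, and p = 0.0556 in the exact permutation test. The call of the mean was lost in 11 of 25 alternatives, among them the fit without replicate 1 of shScram Diff, with adjusted p = 0.0809. Without replicate 1 of shScram Pre the difference of Ythdf2 was -0.39 at Pre and -0.19 for the mean. The 2 pseudogenes alike to Ythdf2 summed to at most 0.048 TPM in any library.

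The balance among the 3 YTHDF transcripts therefore differed between the lines. Ythdf1 made up 25.9% to 40.6% of their summed TPM in the 6 shScram libraries and 49.8% to 55.6% in the 6 shFto libraries. Ythdf3 made up 40.4% to 53.5% in shScram and 27.6% to 35.2% in shFto. Neither share overlapped between the lines. These shares are parts of one sum and not separate results, and how often other sets of genes separate like this was not counted. The share of Ythdf2 was 16.7% to 20.5% in shScram and 13.8% to 18.6% in shFto, and these ranges overlapped. The ratio of Ythdf1 to Ythdf3 was 0.485 to 0.993 in shScram and 1.43 to 2.01 in shFto. Replicate 1 of shScram Pre gave the lowest of these ratios, and the other 5 shScram libraries also had ratios under 1. This ratio was chosen after its values were seen and is given without a test. Transcripts of Ythdf1 hold 50.7% GC and those of Ythdf3 40.2%. After the GC correction the mean differences were 0.42 and -0.26, against 0.49 and -0.49 before it. The part of the GC trend in these shares was not tested. The summed TPM of the 3 genes was 102 to 148 in shScram and 113 to 130 in shFto.

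**Figure D3:**
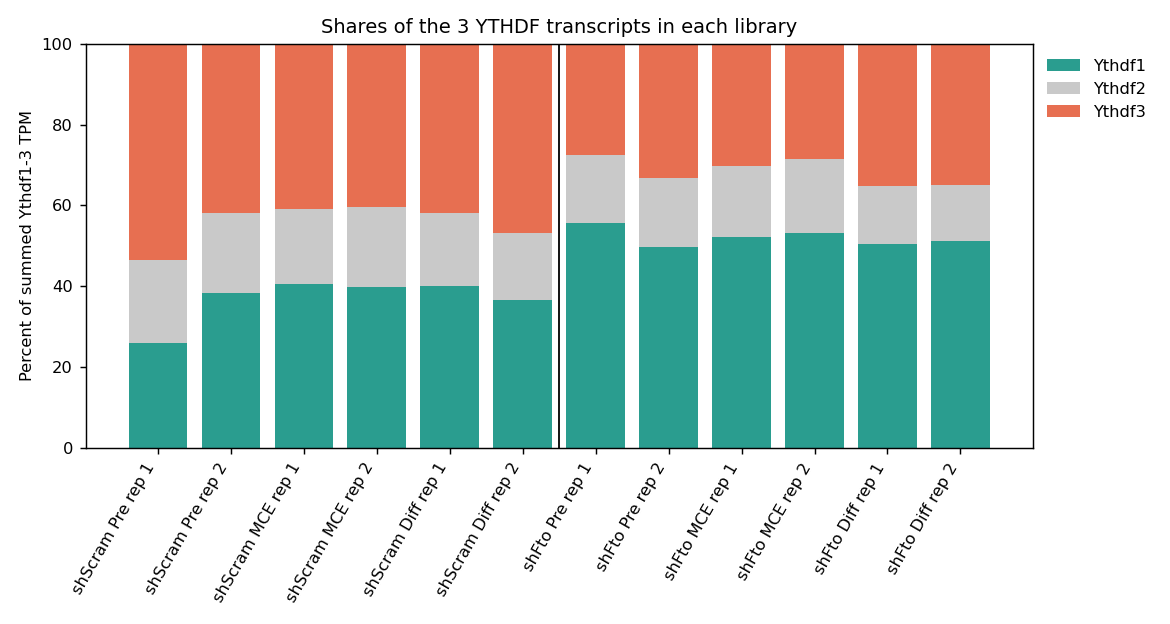
Share of Ythdf1, Ythdf2 and Ythdf3 in their summed TPM (vertical axis, percent) in each of 12 libraries, shScram left of the line and shFto right of it. Ythdf1 takes 25.9% to 40.6% in shScram and 49.8% to 55.6% in shFto.

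The YTHDC genes did not pass the test in any knockdown contrast as reported, though they did in some alternatives. Ythdc1 (ENSMUSG00000035851, chr5:86804221-86836659, plus strand), a reader in splicing and export, measured 66.6 and 43.2 TPM in shScram Pre, 41.0 and 37.1 in shScram MCE, and 42.0 and 46.9 in shScram Diff. The shFto values were 34.9 and 40.3 TPM at Pre, 43.5 and 46.1 at MCE, and 34.9 and 37.4 at Diff. Its shFto libraries were below the shScram libraries at Pre and Diff and above them at MCE. The mean difference was -0.20 ± 0.11 on the log2 scale (adjusted p = 0.169, limma). At Pre the difference of -0.51 turned to 0.02 after the GC correction, and was -0.20 without replicate 1 of shScram Pre. At Diff Ythdc1 was called lower in 5 of 25 alternatives, as with array weights (-0.29, adjusted p = 0.0342, limma). At MCE it was called higher in 2 of 25, as after the GC correction (0.25, adjusted p = 0.028, limma). The meiotic helicase Ythdc2 (ENSMUSG00000034653, chr18:44827746-44889724, plus strand) measured 8.32 and 6.28 TPM in shScram Pre, 6.39 and 4.53 in shScram MCE, and 6.09 and 6.96 in shScram Diff. In shFto it measured 3.95 and 5.01 TPM at Pre, 5.09 and 4.44 at MCE, and 6.63 and 6.27 at Diff. The lines were apart at Pre, with a difference of -0.59 ± 0.20 (adjusted p = 0.0535, limma), and overlapped at MCE and Diff. The difference at Pre was called in 5 of 25 alternatives, and was -0.42 without replicate 1 of shScram Pre.

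Among the IGF2BP genes, the family of mRNA stabilisers, 1 of 3 passed the test over the stages, Igf2bp1. The same contrast called 42.8% of all genes, so this count is not a result about the family. Igf2bp1 (ENSMUSG00000013415, chr11:95957163-96005940, minus strand) measured 10.8 and 21.7 TPM in shScram Pre, 11.1 and 10.6 in shScram MCE, and 17.5 and 15.1 in shScram Diff. Levels in shFto were 27.7 and 28.9 TPM at Pre, 16.2 and 14.1 at MCE, and 19.9 and 20.4 at Diff. The shFto libraries were above the shScram libraries at each stage, while the replicates of shScram Pre differed from each other by about as much as the lines did. The difference was 0.84 ± 0.26 on the log2 scale at Pre (adjusted p = 0.0412, limma), 0.44 ± 0.26 at MCE (0.303) and 0.29 ± 0.26 at Diff (0.475). The mean over stages was 0.53 ± 0.15, with adjusted p = 0.0205 in limma and p = 0.00926 in the exact permutation test. Without replicate 1 of shScram Pre the difference at Pre was 0.37 with adjusted p = 0.0555, and the mean was 0.37 with adjusted p = 0.000813 in limma. The call of the mean was lost in 6 of 25 alternatives, 5 of which left out 1 library each. Igf2bp1 overlaps the antisense gene Gm29202, at no more than 1.47 TPM, and whether the counting used strand is not given in the sources used here.

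Igf2bp2 (ENSMUSG00000033581, chr16:22059009-22163299, minus strand), the member known for effects on metabolism, measured 160 and 124 TPM in shScram Pre, 92.3 and 82.0 in shScram MCE, and 101 and 111 in shScram Diff. The shFto line had 114 and 131 TPM at Pre, 85.9 and 99.7 at MCE, and 113 and 116 at Diff. The lines overlapped at Pre and MCE, and the mean difference was under 0.01 in size, with a standard error of 0.09, on the log2 scale (adjusted p = 0.997, limma). Without replicate 1 of shScram Pre the difference at Pre went from -0.20 to -0.03, and the mean was 0.06. Igf2bp3 (ENSMUSG00000029814, chr6:49085223-49214957, minus strand) measured 80.9 and 59.1 TPM in shScram Pre, 49.3 and 46.8 in shScram MCE, and 50.5 and 57.6 in shScram Diff. The shFto values were 42.3 and 49.4 TPM at Pre, 60.6 and 60.8 at MCE, and 49.4 and 52.8 at Diff. Its shFto libraries were below the shScram libraries at Pre, above them at MCE, and overlapped with them at Diff. The difference was -0.59 ± 0.16 at Pre (adjusted p = 0.0284, limma), 0.33 ± 0.16 at MCE (0.204) and -0.08 ± 0.16 at Diff (0.790). With replicate 1 of shScram Pre left out it was -0.36 at Pre. The difference at MCE does not use that library and stayed at 0.33. Igf2bp3 shares its position with Malsu1 on the other strand, at up to 31.1 TPM, so that its level is uncertain where reads were counted without strand. Igf2bp1 made up 4.28% to 10.6% of the summed IGF2BP TPM in shScram and 8.06% to 15.1% in shFto, and these ranges overlapped.

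Of the hnRNP readers, Hnrnpa2b1 was lower in shFto and Hnrnpc showed no steady difference. Hnrnpa2b1 (ENSMUSG00000004980, chr6:51460932-51469894, minus strand) measured 1701 and 1230 TPM in shScram Pre, 1031 and 1012 in shScram MCE, and 1072 and 1059 in shScram Diff. In the knockdown line these were 917 and 1033 TPM at Pre, 877 and 850 at MCE, and 878 and 900 at Diff. The shFto libraries were below the shScram libraries at each stage. The difference was -0.57 ± 0.16 on the log2 scale at Pre (adjusted p = 0.0315, limma), -0.24 ± 0.16 at MCE (0.370) and -0.26 ± 0.16 at Diff (0.296). The mean over stages was -0.36 ± 0.09, with adjusted p = 0.0139 in limma and p = 0.00926 in the exact permutation test. Its transcripts hold 42.0% GC, below all but 10.7% of the genes tested, and after the GC correction the mean was -0.18 with adjusted p = 0.0175, while the difference at Pre was -0.15 with adjusted p = 0.238 in limma. Without replicate 1 of shScram Pre the mean was -0.28 and the difference at Pre -0.34. Those at MCE and Diff do not use that library and stayed at -0.24 and -0.26.

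Hnrnpc (ENSMUSG00000060373, chr14:52073377-52104028, minus strand) measured 270 and 221 TPM in shScram Pre, 319 and 294 in shScram MCE, and 233 and 250.0 in shScram Diff. In shFto it measured 198 and 213 TPM at Pre, 288 and 287 at MCE, and 258 and 255 at Diff. Both lines had their highest levels at MCE. The shFto libraries were below the shScram libraries at Pre and MCE and above them at Diff, and the mean difference was -0.09 ± 0.07 on the log2 scale (adjusted p = 0.362, limma). Without replicate 1 of shScram Pre the difference of Hnrnpc at Pre went from -0.25 to -0.11, and the mean was -0.04. The 2 pseudogenes alike to Hnrnpc summed to at most 14.0 TPM in a library, and the 1 alike to Hnrnpa2b1 to at most 1.32 TPM.

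**Figure D4:**
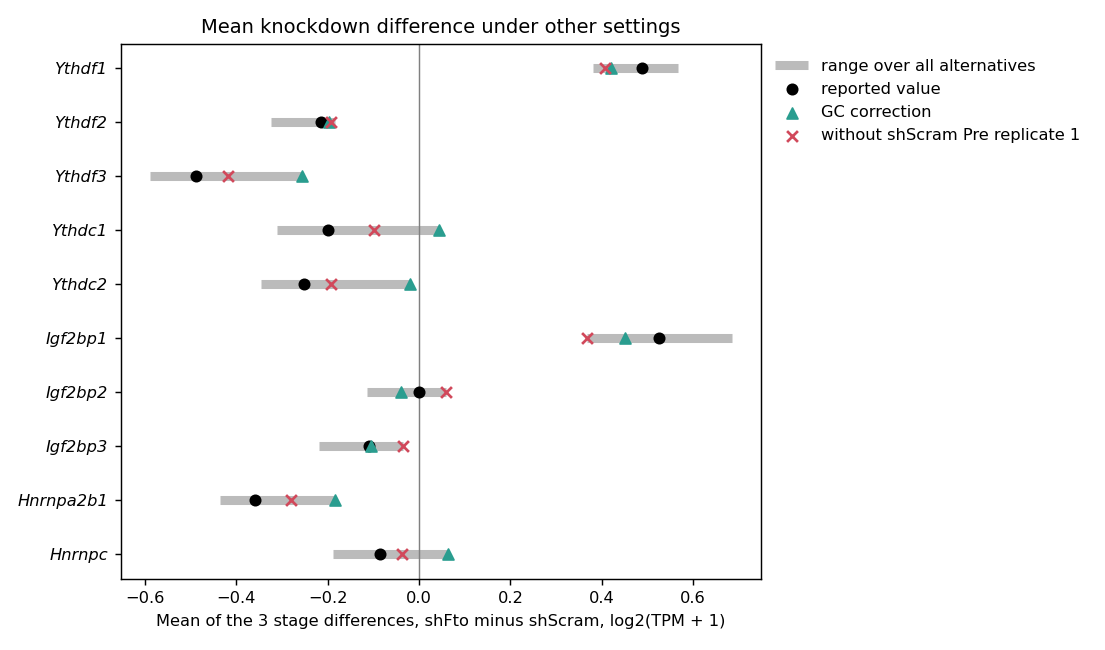
Mean of the 3 stage differences, shFto minus shScram in log2(TPM + 1), for each reader as reported (black), after the GC correction (green triangles) and without replicate 1 of shScram Pre (red crosses); grey bars span the 25 alternatives. Ythdf1 and Igf2bp1 stay above 0 and Ythdf2, Ythdf3 and Hnrnpa2b1 below 0 throughout, while the bars of Ythdc1, Igf2bp2 and Hnrnpc cross 0.

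Stage by stage, the knockdown counts depended on single libraries. At Pre, 6 of the 10 readers were called, Ythdf1 and Igf2bp1 higher and Ythdf2, Ythdf3, Igf2bp3 and Hnrnpa2b1 lower, where 28.2% of all genes were called, 15.9% higher and 12.3% lower. At MCE 1 reader was called (Ythdf1, higher), against 17.8% of all genes. At Diff limma called 0 readers, against 21.2% of all genes. An unadjusted p under 0.05 was reached there by 2 readers (Ythdf1 and Ythdf2), against 33.5% of all genes. Without replicate 1 of shScram Pre the counts were 4 at Pre, 4 at MCE and 5 at Diff, against 29.0%, 41.0% and 45.7% of all genes. Without replicate 2 of shScram Pre they were 10, 4 and 5, against 62.8%, 41.0% and 45.6%, and without any other single library 0 to 3 at Pre and 0 at MCE and Diff. Both shFto libraries were above both shScram libraries for 2 readers at Pre, 5 at MCE and 4 at Diff, where this held for 33.6%, 41.1% and 39.0% of all genes. They were below for 7, 3 and 4 readers, where this held for 26.9%, 30.3% and 34.0% of all genes.

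Across the stages of the shScram line, 5 readers fell from Pre to MCE. These were Ythdf2 (-0.48 ± 0.12, adjusted p = 0.013), Ythdf3 (-0.64 ± 0.18, 0.0235), Igf2bp2 (-0.69 ± 0.15, 0.00777), Igf2bp3 (-0.52 ± 0.16, 0.0315) and Hnrnpa2b1 (-0.50 ± 0.16, 0.0359), on the log2 scale by limma. The contrast called 39.1% of all genes, 26.9% as lower, and the median of all genes was -0.17, so relative to that median the falls were smaller by this amount. Under median-ratio scaling none of these 5 passed the limma test, the nearest being Igf2bp2 (-0.48, adjusted p = 0.0552), and the 1 reader called was Hnrnpc, higher by 0.53 (adjusted p = 0.0231). Under that scaling 52.0% of the calls over all genes were higher against 31.1% as deposited. After the GC correction Ythdf3 and Hnrnpa2b1 were at 0.04 and 0.10. Without replicate 1 of shScram Pre the contrast called 7 readers, 6 lower and 1 higher, against 48.1% of all genes. Igf2bp3 then lost its call (-0.29, adjusted p = 0.0556, limma), while Igf2bp1 (-0.94, 0.000218) and Ythdf1 (-0.32, 0.0201) were called lower and Hnrnpc higher (0.47, 0.00127). Ythdf2, Ythdf3, Igf2bp2 and Hnrnpa2b1 were called in both fits, Hnrnpa2b1 now at -0.27 (0.033), and without replicate 2 of shScram MCE the contrast called 0. From MCE to Diff limma called 0 readers in shScram, against 25.2% of all genes, and 1 (Hnrnpc, -0.34 ± 0.13) had an unadjusted p under 0.05, against 38.0%. It called 3 without replicate 1 and 3 without replicate 2 of shScram Pre, against 52.0% of all genes in each case.

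In the shFto line 2 readers changed from Pre to MCE, against 28.7% of all genes. Hnrnpc rose by 0.48 ± 0.13 (adjusted p = 0.019) and Igf2bp1 fell by 0.86 ± 0.26 (0.0348) on the log2 scale in limma, where the median of all genes was -0.18. From MCE to Diff 1 reader changed, Ythdf2, which fell by 0.41 ± 0.12 (adjusted p = 0.0338), against 26.7% of all genes and a median of 0.17. These counts were 4 and 5 without replicate 1 of shScram Pre, against 51.1% and 50.9% of all genes, and also 4 and 5 without replicate 2. They were 0 or 1 from Pre to MCE without any other library, and 0 from MCE to Diff without any single library of MCE or Diff. The median of all genes from MCE to Diff in shScram was 0.23. The share of calls that were higher from MCE to Diff was 79.3% in shScram and 75.7% in shFto as deposited, and 53.4% and 57.2% under median-ratio scaling. For Pre to MCE in shFto it was 30.6% as deposited and 48.6% under that scaling.

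Whether the knockdown difference itself changed between stages was tested as an interaction. From Pre to MCE 0 readers were called by limma, against 5.11% of all genes, and 4 had an unadjusted p under 0.05 (Ythdf2, Ythdf3, Ythdc1 and Igf2bp3), against 22.4%. The largest of these was Igf2bp3, at 0.92 ± 0.23 on the log2 scale (adjusted p = 0.0542). From MCE to Diff 0 were called by limma, against 2.49% of all genes, and 1 had an unadjusted p under 0.05 (Ythdf2), against 15.3%. The fit without replicate 1 of shScram Pre called 2 (Igf2bp3 and Ythdf2) and 1 (Ythdc1), against 14.1% and 17.1% of all genes. Without replicate 2 of shScram Pre they were 8 and 1, against 52.5% and 17.1%. Over the 6 groups together, the F test called 7 readers, Ythdf1, Ythdf2, Ythdf3, Igf2bp1, Igf2bp2, Hnrnpa2b1 and Hnrnpc, against 66.1% of all genes. It called 8 without replicate 1 and 10 without replicate 2 of shScram Pre, against 86.3% and 90.9% of all genes, and 2 to 5 without any other single library.

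The other genes of the pathway moved in both directions. Their counts are for the mean over the stages, in which 42.8% of all genes were called, 24.5% higher and 18.3% lower, with a median of 0.06, and no list was tested against that background. Of 8 subunits of the m6A methyltransferase complex, 1 changed over the stages, Mettl14, which fell by 0.58 ± 0.09 on the log2 scale (adjusted p = 0.00138, limma). Wtap, its scaffold, was lower at Pre (-0.50 ± 0.15, adjusted p = 0.0415), and the median of the complex was -0.09. At Pre Wtap measured 92.1 TPM in replicate 1 and 65.5 TPM in replicate 2 of shScram, against 51.7 and 57.8 TPM in shFto. Of 5 other methyltransferases, 1 was called, Mettl16 at -0.21 ± 0.07 (adjusted p = 0.0395). Alkbh5, the other m6A demethylase, rose by 0.63 ± 0.11 (adjusted p = 0.00181). Its level was 37.2 to 63.1 TPM in the 6 shScram libraries and 64.3 to 103 TPM in the 6 shFto libraries. The share of all genes without overlap over the 12 libraries was not counted. Of 10 other proposed m6A binders, 2 were higher and 4 lower, with a median of -0.23. The higher ones were Fxr2 (0.69 ± 0.14) and Snd1 (0.35 ± 0.11), and the lower ones were Lrpprc (-0.54 ± 0.08), Rbmx (-0.52 ± 0.11), Fxr1 (-0.50 ± 0.16) and Eif3h (-0.31 ± 0.06). Eif3a, a subunit of the translation initiation factor eIF3, was lower at Pre (-0.87 ± 0.24, adjusted p = 0.0279, limma) with a mean of -0.37 (0.0534). The share called among these binders, as in the other lists, was not tested and is not a result about the list.

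Genes that work with the readers were examined in the same contrast. Of 13 genes of the CCR4-NOT deadenylase and partners of YTHDF2, 3 were higher and 4 lower, with a median of -0.07, where 7 of 13 stand beside 42.8% of all genes. The catalytic subunit Cnot6 fell by 1.17 ± 0.10 on the log2 scale (adjusted p = 3.68e-05, limma), from 38.0 to 57.0 TPM in shScram to 13.0 to 23.3 TPM in shFto, and its paralogue Cnot6l fell by 0.53 ± 0.13 (0.0107). Rida, which links YTHDF2 to RNase P, fell by 0.74 ± 0.12 (0.0017), and the catalytic subunit Cnot8 rose by 0.44 ± 0.06 (0.000443). Of the other CCR4-NOT genes, Cnot3 rose by 0.38 ± 0.07 and Cnot11 by 0.36 ± 0.08, and Cnot4 fell by 0.36 ± 0.11. Of 4 tested partners of YTHDC1 and YTHDC2, 1 was called, the splicing factor Srsf3 at -0.20 ± 0.07 (adjusted p = 0.0401). At Pre the exonuclease Xrn1 (-0.67 ± 0.18, adjusted p = 0.029, limma) and the splicing factor Srsf10 (-0.68 ± 0.22, 0.0476) were lower, with means of -0.29 (0.0517) and -0.15 (0.370). Replicates 1 and 2 of shScram Pre gave 29.9 and 21.7 TPM for Xrn1, against 13.8 and 17.7 in shFto Pre. For Srsf10 they gave 223 and 131 TPM, against 96.3 and 117.

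Of 8 tested genes from the oncofetal programme and known clients of IGF2BP proteins, 4 were higher and 1 lower, with a median of 0.50, beside 24.5% higher and 18.3% lower of all genes. The imprinted RNA H19 was at 0 to 3.91 TPM in shScram and 5.09 to 43.3 TPM in shFto, a difference of 2.18 ± 0.09 on the log2 scale (adjusted p = 7.12e-07, limma). Its imprinted neighbour Igf2 was listed at 0 in 3 of 6 shScram libraries and reached 37.5 and 39.4 TPM in shFto Diff. The architectural factor Hmga2 was higher by 0.93 ± 0.08 (adjusted p = 4.02e-05), with 88.7 and 90.7 TPM in shScram Diff and 332 and 347 TPM in shFto Diff. Its relative Hmga1 was higher at Pre (1.44 ± 0.45, adjusted p = 0.0447, limma), with a mean of 0.70 (0.0572). At Pre Hmga1 measured 90.8 TPM in replicate 1 and 325 TPM in replicate 2 of shScram, against 472 and 461 TPM in shFto. Actb was higher by 0.30 ± 0.11 (0.0475), and the surface receptor Cd44 was the 1 lower gene (-0.58 ± 0.07, adjusted p = 0.000316). Of 23 other hnRNP genes, 4 were higher and 7 lower, with a median of -0.03, so that 11 of 23 is near the 42.8% of all genes. Hnrnph1 fell by 0.69 ± 0.08 (adjusted p = 0.000317, limma) and Hnrnpa1 by 0.61 ± 0.12 (0.00427). The difference of Hnrnpa1 was -1.43 at Pre, -0.45 at MCE and 0.05 at Diff, and only that at Pre was called. Hnrnpab rose by 0.32 ± 0.09 (0.0189). The other higher ones were Hnrnpul1 (0.41 ± 0.13), Ptbp1 (0.39 ± 0.11) and Pcbp2 (0.31 ± 0.08), and Raly was higher at Pre (0.93 ± 0.29, adjusted p = 0.045, limma) with a mean of 0.47 (0.0526). At Pre Raly measured 174 TPM in replicate 1 and 378 TPM in replicate 2 of shScram, against 472 and 504 TPM in shFto. Other differences in these lists were not compared with the readers by a test.

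For the 7 readers that passed the F test, the genes of most alike pattern were sought among 10798 genes with a mean TPM of 5 or more, by Pearson r of log2(TPM + 1) over the 12 libraries. For Ythdf1 these were Kdelr2 (0.983) and Surf4 (0.978), genes of the early secretory pathway. For Ythdf3 they were Nudt4 (0.981) and Fbxo11 (0.981), and for Ythdf2 Psmd1 (0.969) and Smu1 (0.956). The libraries share their preparation and the GC trend above, and the values are given as a description with no test. For Igf2bp1 they were Grn (0.980) and Slc48a1 (0.979), and for Igf2bp2 Mff (0.975) and Orc4 (0.974). For Hnrnpa2b1 they were Sucla2 (0.992) and Dnm1l (0.983), and for Hnrnpc Rad21 (0.951) and Ppp3ca (0.945).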

How the data were processed

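RNA-seq libraries of fragmented total RNA from 12 samples of 3T3-L1 cells were used, 2 in each of 6 groups taken from the titles. Per the paper and the submitters' processing notes, the deposited TPM values came from StringTie 2.1.4 on Ensembl genes, after trimming by Trim Galore 0.6.5 and HISAT2 2.1.0 alignment against GRCm38, all run by the authors. The authors tested differential expression with DESeq2 1.30.1 on counts; counts were not used here, so log2(TPM + 1) was tested instead. Depth cannot be read from TPM and is unknown; precision is that of 2 libraries a group.

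The test covered 15968 of 55487 genes, those reaching 1 TPM in 2 libraries or more, using limma 3.58.1 (R 4.3.3) with a mean per group and a trended prior, two-sided, with Benjamini-Hochberg adjustment at 0.05. All groups shared one estimate of the spread. Alternatives were another pseudocount (0.1), filter, scaling (median-ratio, quantile), spread estimate, array weights, single contrasts alone, the replicate number as a block and each library left out. A GC correction, the same with the block, and a fit without both doubted libraries were chosen after seeing the data. Same-numbered replicates did not deviate together (correlation -0.290 to 0.172, 2 of 15 pairs over 0.1). Trends of single libraries, such as that with GC, enter these values, so they cannot show whether the numbers pair samples. The fit was tested on simulated data. The 10 readers were chosen, and the lists drawn up, with earlier results of these data known. All readers are named. From each list the text names members called at a stage, up to 4 with the largest mean difference, and members of counts of 5 or fewer.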

Additional observations from a re-analysis of the deposited data

Results flagged for a closer look

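Of the 10 readers, 4 had shFto libraries on one side of the shScram libraries at one stage and on the other side at the next, which also held for 16.1% of the 15968 genes tested. Ythdf2 was below at Pre and above at MCE, and its knockdown difference changed by 0.5759 on the log2 scale (interaction in limma, adjusted p = 0.0952). It was below again at Diff, a change of -0.4265 from MCE (adjusted p = 0.272). Ythdc1 followed the same order, with changes of 0.7004 (adjusted p = 0.175) and -0.4849 (adjusted p = 0.458). Igf2bp3 was below at Pre and above at MCE, a change of 0.9194 (adjusted p = 0.0542). Hnrnpc was below at MCE and above at Diff, a change of 0.1771 (adjusted p = 0.739). None of these 6 changes passed the adjusted test as reported. The 6 were picked by the sides seen in these same data. Without replicate 1 of shScram Pre, the changes from Pre to MCE were 0.6962 for Igf2bp3, 0.5113 for Ythdf2 and 0.3938 for Ythdc1. Those from MCE to Diff do not use that library.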

How the results depend on the processing

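Counts of readers called changed with the libraries and the model more than the differences did. Counts over all genes changed too, so these counts are not results about the readers. With 1 library left out at a time, the counts ranged from 0 to 10 for shFto against shScram at Pre, 0 to 4 at MCE, 0 to 5 at Diff and 3 to 9 for the mean of the stages. They ranged from 0 to 7 from Pre to MCE and 0 to 3 from MCE to Diff in shScram, and from 0 to 4 and 0 to 5 in shFto. The interactions ranged from 0 to 8 (MCE against Pre) and 0 to 1 (Diff against MCE), and the F test over the 6 groups from 2 to 10. In these fits a lone sample is assumed to vary like the other groups. With array weights or with only the libraries of the contrast, 0 readers were called at Pre, 4 at MCE and 5 at Diff. Over all genes, both settings likewise called fewer than the reported 4510 at Pre and more than the reported 2838 at MCE. Both settings gave 0 from Pre to MCE and 2 from MCE to Diff in shScram, 7 from MCE to Diff in shFto and 3 for the interaction of Diff against MCE, and from Pre to MCE in shFto they gave 5 and 4. Without a filter the counts were 2 at Pre, 0 at MCE, 2 from Pre to MCE in shScram and 1 in shFto. Fewer genes in all were then called at Pre and at MCE than as reported. Median-ratio scaling gave 1 from Pre to MCE and 1 from MCE to Diff in shScram, and quantile normalization gave 2 for the former. Over all genes these were 6008, 3603 and 5664 calls, where 6236 and 4023 were called for these steps as reported. The GC correction gave 2 at MCE, 2 at Diff, 3 from Pre to MCE and 3 from MCE to Diff in shScram, 5 and 4 in shFto, and 2 and 1 for the interactions. Over all genes it called 4722 at MCE and 5335 at Diff, and 1698 and 1326 for the interactions. It called 7108 and 5405 for the steps of shScram and 6290 and 6444 for those of shFto. Without both doubted libraries the counts were 4 at MCE, 5 at Diff, 8 and 3 for the steps of shScram, 5 and 5 for those of shFto, and 1 and 2 for the interactions. The count for the mean of the stages was 4 or 5 in every setting that kept all libraries. The cause of these changes was not tested.

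Whether the replicate number pairs samples is not known. With it as a block, the counts were 4 at Pre, 1 at MCE, 0 at Diff and 4 for the mean, and from MCE to Diff in shFto 0. The calls lost were those of Ythdf1 and Igf2bp1 at Pre, Ythdf2 for the mean and from MCE to Diff in shFto, and Hnrnpa2b1 from Pre to MCE in shScram; it changed no other reader's call among those tested. With the GC correction and the block together the counts were 2 at MCE, 2 at Diff, 3 and 2 for the steps of shScram, 4 and 3 for those of shFto, and 1 for the interaction of MCE against Pre.

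Some directions reversed, none of a called mean difference. After the GC correction, with or without the block, Ythdc1 was at 0.0221 at Pre and 0.0436 for the mean, Ythdc2 at 0.1328 at Diff, and Hnrnpc at 0.1199 at Pre and 0.0624 for the mean. From Pre to MCE in shScram, Ythdf3 was then at 0.0412 and Hnrnpa2b1 at 0.102. Quantile normalization put Igf2bp2 at -0.0311 at MCE and Hnrnpc at -0.0364 at Diff, and without both doubted libraries the mean of Igf2bp2 was 0.0383. With 1 library left out, Igf2bp2 ranged from -0.018 to 0.1943 at MCE and from -0.0602 to 0.0592 for the mean, Igf2bp3 from -0.1699 to 0.0166 at Diff, and Ythdc2 from -0.3608 to 0.058 at MCE and from -0.0959 to 0.0718 at Diff. TPM hold no counts, so counting error could not be separated from the spread between libraries, and 2 libraries per group set the precision.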
